A study of Mus musculus with 9 samples.

Results

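Reference genes are transcripts whose level is taken as constant, so that a quantitative PCR signal can be divided by theirs. The 8 genes described here (Gapdh, Actb, Ppia, Ywhaz, Tfrc, Tbp, Hprt and Gusb) were taken by name from a table of raw counts with 38293 genes, because they are in common use for that purpose. They were compared over 9 RNA-seq libraries of the mouse embryonic stem cell line E14 (strain 129/Ola), 3 in each of 3 culture states, and ranked by how little they varied. The study compared naive and primed mESC with epiblast-like cells (EpiLC). mESC-2i, labelled naive, were kept in N2B27 medium with 1 μM of the MEK inhibitor PD0325901, 3 μM of the GSK3 inhibitor CHIR99021 and 10 ng/mL LIF. mESC-ser, labelled primed, were grown on gelatin in medium with 15% serum and 10 ng/mL LIF. EpiLC were made from the naive cells on fibronectin, in N2B27 with 20 ng/mL activin A, 12 ng/mL bFGF and 1% KSR. Since medium, substrate and added factors changed together, their separate parts in a difference cannot be told apart. All cells were of 1 line, and none of the 3 states was an untreated control for the others.

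The 8 genes serve unrelated tasks, which is why they are often used side by side. Glycolysis, the actin skeleton, protein folding, iron uptake, lysosomal breakdown of sugar chains, purine salvage and the start of transcription each have 1 of them, and Ywhaz encodes a 14-3-3 adaptor that binds phosphorylated proteins. Naive pluripotent cells and epiblast-like cells differ in metabolism and in their adhesion to the substrate, so a gene that is steady in one cell type need not be steady here.

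The libraries held between 7187576 and 16829549 counts. Pou5f1 and Sox2 were present in each library. The summed level of 5 naive markers (Zfp42, Klf4, Esrrb, Tbx3 and Prdm14) was 1622 to 1631 CPM (counts scaled by TMM to a common library total) for mESC-2i, 1036 to 1120 CPM for mESC-ser and 27.2 to 31.9 CPM for EpiLC. That of 4 EpiLC markers (Fgf5, Otx2, Dnmt3b and Pou3f1) was highest in EpiLC at 1633 to 1699 CPM. Of the other cells a culture could hold, 5 fibroblast markers summed to 43.3 to 51.4 CPM with 2i, 57.4 to 77.5 CPM with serum and 31.0 to 38.8 CPM in the EpiLC libraries, with the fibroblast gene Lum at 0 to 3 counts. Most of the EpiLC sum was Thy1, at 27.4 to 31.7 CPM there and 2.75 to 5.01 CPM in the mESC libraries, while the other 4 markers summed to 3.07 to 7.11 CPM in EpiLC, 40.6 to 48.5 CPM with 2i and 53.1 to 72.5 CPM with serum. The 5 primitive endoderm markers summed to at most 15.7 CPM and the 3 neural markers to at most 48.9 CPM, in both cases highest in mESC-ser and lowest in EpiLC. Not every marker followed its sum. The neural gene Sox1 (means of 24.4 and 6.75 CPM) and the endoderm gene Gata4 (4.66 and 3.36 CPM) were higher with 2i than with serum. The neural gene Neurod1 was lowest with 2i (1.52 CPM, beside 4.58 CPM in EpiLC). Mitochondrial genes took 3.66% to 4.31% of counts in mESC-ser and 5.86% to 7.98% over the libraries of mESC-2i and EpiLC. Replicate 3 of mESC-2i and replicate 3 of mESC-ser stood apart from the others of their group, with a chi-square per degree of freedom over genes of 11.8 to 30.5 in their pairs and 1.66 to 4.86 in the rest. Leaving out either changed no call of a member in the pairwise comparisons but that of Tfrc, given below. The part of such cells and of these library differences in the results below was not tested. In bulk RNA, fewer cells of one type and less RNA per cell cannot be told apart.

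Several reference genes have processed pseudogenes, which are copies of the spliced mRNA that were put back into the genome. Reads were 50 bases long, and a read that lies in a stretch shared by gene and copy cannot be placed uniquely. Of the 50-base windows of the Gapdh transcript with the longest coding sequence, 90.4% occurred without a difference in transcripts annotated to another gene, and 222 such genes were found. The share was 54.3% for Ppia (38 genes), 31.1% for Ywhaz (3 genes) and 14.2% for Actb (18 genes). For Tfrc, Tbp, Hprt and Gusb it was 0. How the counting treated reads with several placements is not given in the sources used here.

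The most widely shared coding window of Gapdh, Ppia and Ywhaz is shown first, since these are the stretches in which gene and copy are the same. The Gapdh window (chr6:125162898-125162947, minus strand, GRCm38) was found in 84 other annotated genes, the Ppia window (chr11:6419194-6419243, plus strand) in 18 and the Ywhaz window (chr15:36775420-36775469, minus strand) in 2. All 3 lie in coding exons.
Gapdh: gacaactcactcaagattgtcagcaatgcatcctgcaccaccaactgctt
Ppia: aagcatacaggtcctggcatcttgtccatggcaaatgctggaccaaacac
Ywhaz: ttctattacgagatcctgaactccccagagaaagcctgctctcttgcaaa

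Elsewhere a single base separates gene and leading copy, as 1 pair shows, with the differing base in capitals and positions counted from the first base of the window. In coding exon sequence of Gapdh (chr6:125162991-125163040, minus strand), its pseudogene Gm13394 (chr2:28934239-28934288, minus strand) differs by A25C, although 48 other genes hold the Gapdh window without a difference.
Gapdh: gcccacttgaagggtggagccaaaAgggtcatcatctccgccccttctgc
Gm13394: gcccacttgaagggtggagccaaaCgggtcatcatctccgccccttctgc

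**Figure D1:**
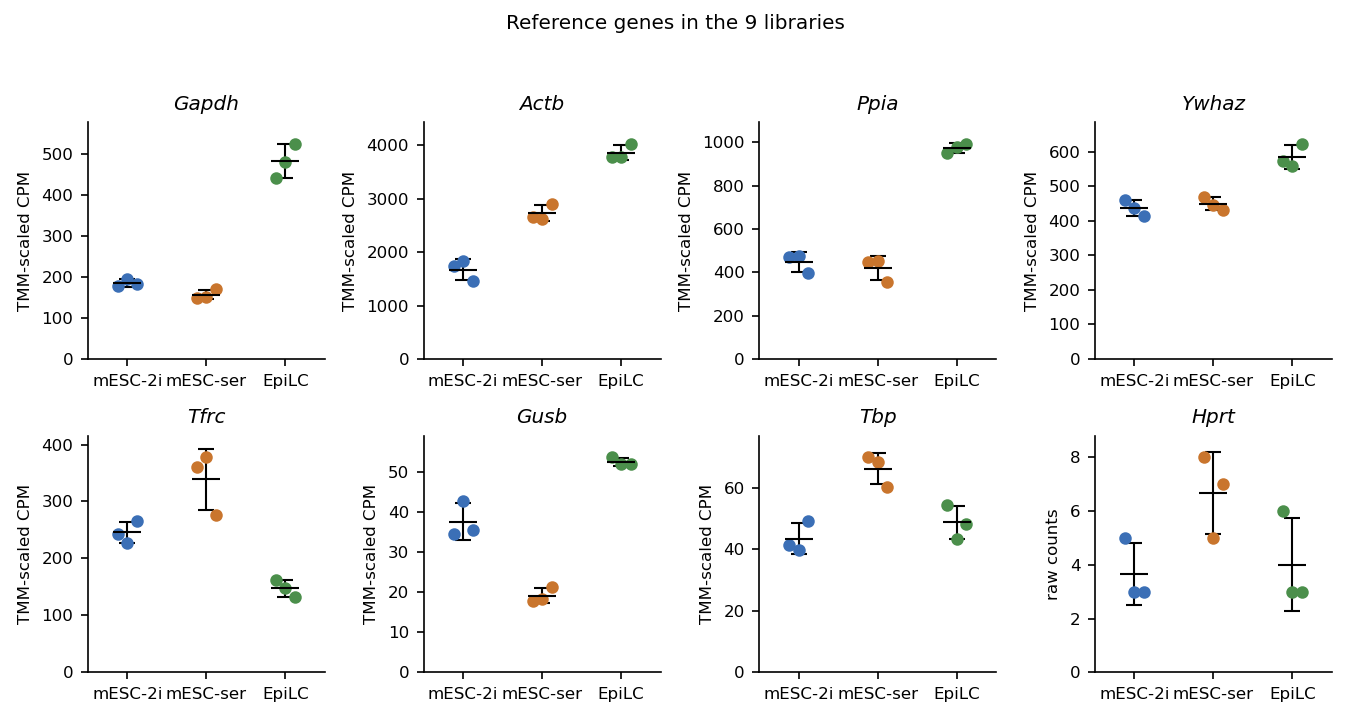
Level of each reference gene by state: TMM-scaled CPM on the vertical axis, raw counts for Hprt, with 1 point per library and bars giving the mean ± SD of 3 libraries. Gapdh, Actb and Ppia lie highest in EpiLC, Tfrc lies lowest there, and Hprt stays between 3 and 8 counts throughout.

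Gapdh (ENSMUSG00000057666, chr6:125161715-125166467, minus strand) encodes the glycolytic enzyme that oxidises glyceraldehyde 3-phosphate. Its level, in CPM after TMM scaling (the unit of all levels below unless said otherwise), was 177, 195 and 183 CPM for mESC-2i, 149, 152 and 170 CPM for mESC-ser, and 441, 480 and 525 CPM for EpiLC. The EpiLC libraries lay far above both mESC groups, and the mESC-ser libraries lay just below mESC-2i, with no overlap. A gene was called where the adjusted p of edgeR's quasi-likelihood test was under 0.05 and the log2 fold change was over 0.5 in size. Gapdh rose in EpiLC by 1.38 on the log2 scale against mESC-2i (SE 0.10, adjusted p = 5.06e-07, edgeR) and by 1.69 against mESC-ser (SE 0.09, adjusted p = 1.46e-11, edgeR). Between the mESC groups the log2 difference was -0.26 (95% interval -0.48 to -0.05), which passed the test (edgeR adjusted p = 0.0325) but not the fold threshold. Its exons share 68 bases with Iffo1 on the opposite strand.

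Gusb (ENSMUSG00000025534, chr5:129989011-130003049, minus strand) encodes beta-glucuronidase, a lysosomal hydrolase. The mESC-2i libraries held 34.4, 42.8 and 35.6 CPM, those of mESC-ser 17.7, 18.4 and 21.3 CPM, and those of EpiLC 53.7, 51.9 and 51.9 CPM. The 3 states were separate, with mESC-ser lowest. Gusb fell by 1.00 on the log2 scale in mESC-ser against mESC-2i (SE 0.13, edgeR adjusted p = 6.08e-05) and rose by 1.52 in EpiLC against mESC-ser (SE 0.09, edgeR adjusted p = 1.61e-10). Its log2 difference of 0.48 in EpiLC against mESC-2i (95% interval 0.24 to 0.72, edgeR adjusted p = 0.00194) fell short of the fold threshold, and was past it at 0.63 without mESC-2i replicate 2, at 0.54 with RLE scaling and at 0.53 with DESeq2.

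Actb (ENSMUSG00000029580, chr5:142903115-142906754, minus strand) encodes cytoplasmic beta-actin. It had the most counts of the 8, at 1732, 1832 and 1456 CPM with 2i, 2662, 2627 and 2898 CPM with serum, and 3780, 3779 and 4034 CPM in the EpiLC libraries. The groups formed 3 separate steps. Actb rose by 0.68 in mESC-ser against mESC-2i (SE 0.12, edgeR adjusted p = 0.000467) and by 1.21 in EpiLC against mESC-2i (SE 0.12, edgeR adjusted p = 5.10e-06), both on the log2 scale. In EpiLC against mESC-ser the log2 rise was 0.57 (SE 0.08, edgeR adjusted p = 3.11e-06), and it was under the fold threshold at 0.49 with no filter on low counts and at 0.25 and 0.34 with the length and GC offsets described below. With total-count scaling it was 0.23, which stood 0.64 above the median of all genes, as it did with TMM scaling.

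Ppia (ENSMUSG00000071866, chr11:6415443-6419817, plus strand) encodes cyclophilin A, a peptidyl-prolyl isomerase that helps proteins fold. It was counted at 472, 475 and 396 CPM in the libraries of mESC-2i, at 448, 454 and 354 CPM with serum, and at 949, 979 and 994 CPM after the change to EpiLC. The mESC groups overlapped, while each EpiLC library was above all 6 mESC libraries. Ppia rose in EpiLC by 1.12 on the log2 scale against mESC-2i (SE 0.10, edgeR adjusted p = 2.92e-06) and by 1.29 against mESC-ser (SE 0.10, edgeR adjusted p = 2.60e-09). Between the mESC groups its log2 difference was -0.12 (95% interval -0.41 to 0.17, edgeR adjusted p = 0.441).

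Ywhaz (ENSMUSG00000022285, chr15:36770770-36796929, minus strand) encodes the zeta form of the 14-3-3 adaptors. With 2i it stood at 460, 437 and 414 CPM, with serum at 469, 447 and 432 CPM, and in the EpiLC libraries at 573, 559 and 624 CPM. The mESC groups overlapped and EpiLC lay above both by a small step. That step was 0.42 on the log2 scale against mESC-2i (95% interval 0.21 to 0.63, edgeR adjusted p = 0.00186) and 0.45 against mESC-ser (95% interval 0.28 to 0.62, edgeR adjusted p = 6.17e-05), and in neither case was it past the fold threshold. In mESC-ser against mESC-2i the log2 difference was 0.02 (95% interval -0.20 to 0.23, edgeR adjusted p = 0.899).

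Tfrc (ENSMUSG00000022797, chr16:32608920-32632794, plus strand) encodes the transferrin receptor, which brings iron into the cell. The values were 243, 228 and 266 CPM for mESC-2i, 361, 378 and 277 CPM for mESC-ser and 162, 149 and 132 CPM for EpiLC. It was the only one of the 8 that was lowest in every EpiLC library, and the groups did not overlap. Tfrc fell by 0.73 on the log2 scale in EpiLC against mESC-2i (SE 0.11, edgeR adjusted p = 8.42e-05) and by 1.13 against mESC-ser (SE 0.12, edgeR adjusted p = 1.11e-07). In mESC-ser against mESC-2i the log2 difference was 0.44 (95% interval 0.14 to 0.74, edgeR adjusted p = 0.0156), short of the fold threshold, but it was called without mESC-2i replicate 3 (0.51) or without mESC-ser replicate 3 (0.59).

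Tbp (ENSMUSG00000014767, chr17:15499888-15528379, plus strand) encodes the TATA-binding protein, the subunit of TFIID that contacts the promoter. The mESC-2i libraries held 41.4, 39.8 and 49.1 CPM, those of mESC-ser 70.0, 68.3 and 60.4 CPM, and those of EpiLC 54.4, 43.5 and 48.3 CPM. The mESC-ser libraries were highest and did not overlap the others, while mESC-2i and EpiLC overlapped. Tbp rose by 0.58 on the log2 scale in mESC-ser against mESC-2i (SE 0.12, edgeR adjusted p = 0.00166). In EpiLC the log2 difference was 0.16 against mESC-2i (95% interval -0.11 to 0.43, edgeR adjusted p = 0.246) and -0.38 against mESC-ser (95% interval -0.59 to -0.16, edgeR adjusted p = 0.00244). Annotated Tbp exons share 2582 bases with the gene Pdcd2 on the opposite strand, which had 420 to 964 counts per library. Reads of shared bases cannot be assigned without strand.

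Hprt (ENSMUSG00000025630, chrX:52988137-53021659, plus strand) encodes the enzyme that returns hypoxanthine and guanine to the nucleotide pool. It was near 0 in every library, with 5, 3 and 3 raw counts for mESC-2i, 8, 5 and 7 for mESC-ser and 6, 3 and 3 for EpiLC. A level of 3 counts, the limit that a count of 0 would allow, corresponds to between 0.173 and 0.400 CPM in these libraries. Hprt stood at 0.236 to 0.800 CPM, at the limit of its own library in some and above it in others, as in mESC-ser replicate 1 (0.552 CPM, limit 0.207 CPM). It did not pass the filter on low counts and was not tested or ranked. The ratio of summed counts per library total was 1.29 for mESC-ser against mESC-2i (95% exact binomial interval 0.587 to 2.97), 1.14 for EpiLC against mESC-2i (0.461 to 2.86) and 0.888 for EpiLC against mESC-ser (0.396 to 1.91), where the intervals cover counting error only. At this depth no difference was detectable.

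Its neighbours on the X chromosome, chosen after their values were seen, were counted. Phf6, whose annotated end lies 31194 bases before Hprt, had 192 to 1018 counts, and Fam122b, 221756 bases beyond it, had 81 to 682. Plac1, the nearest gene on that side, had 0 to 8 counts. As background, a widely used subline of E14 was selected for loss of HPRT activity. The labels name the line only as E14, and whether these cells carry such a lesion was not tested. The reference sequence of the 250 bases before the Hprt start (chrX:52987828-52988077, plus strand, RefSeq on GRCm38.p6) is shown because Hprt was the member with by far the fewest counts. The GC box GGGCGG, marked in capitals and searched on both strands, occurred 2 times in it, and no TATAAA or CCAAT was found on either strand. A GC box stands in 32.7% of the 32851 stretches of this length in the same table.
Hprt: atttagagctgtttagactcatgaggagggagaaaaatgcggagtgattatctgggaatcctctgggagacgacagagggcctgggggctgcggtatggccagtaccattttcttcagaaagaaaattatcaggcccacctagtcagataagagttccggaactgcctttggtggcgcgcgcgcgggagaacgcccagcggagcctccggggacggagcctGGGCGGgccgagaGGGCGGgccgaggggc

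The members that were called are counted here beside the share of all tested genes called. In mESC-ser against mESC-2i, 3 of the 7 tested members were called, 2 higher and 1 lower, where 56.2% of all tested genes were called (25.9% higher and 30.3% lower). In EpiLC against mESC-2i, 4 of 7 were called, 3 higher and 1 lower, beside 69.8% of all genes (32.0% higher and 37.8% lower). In EpiLC against mESC-ser, 5 of 7 were called, 4 higher and 1 lower, beside 73.3% of all genes (35.5% higher and 37.8% lower). The 3 comparisons share their groups and are not independent of each other. In a single test of any difference among the 3 states, 6 of 7 members were called, as were 87.7% of all genes, and Ywhaz alone was not (largest log2 difference 0.42, edgeR adjusted p = 0.000689). Without mESC-2i replicate 2 it was called too, which made 7. Under length and GC offsets Ywhaz was called as well (largest log2 difference 0.61 with all exons and 0.50 with 1 transcript per gene), while Tfrc was not called under either (0.44 and 0.27) nor Tbp with 1 transcript per gene (0.44).

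Ranked by the SD of log2 CPM over the 9 libraries, Ywhaz varied least (0.211), followed by Tbp (0.301), Actb (0.537), Tfrc (0.540), Ppia (0.603), Gusb (0.650) and Gapdh (0.761). The highest library exceeded the lowest 1.51-fold for Ywhaz, 1.76-fold for Tbp and 3.53-fold for Gapdh. Among the 8085 genes with at least 10 CPM in each group, 9.68% varied less than Ywhaz, 21.7% less than Tbp and 75.0% less than Gapdh. The median SD of the 7 members was 0.540, beside 0.505 for those 8085 genes and 0.682 for all 16187 tested. Within a group the members varied far less, with SDs between 0.074 for Ywhaz and 0.176 for Tfrc. The members from Actb to Gusb lay close together in the rank (0.537 to 0.650). No sampling error was computed for these SDs, so whether any place in the rank is resolved was not tested.

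**Figure D2:**
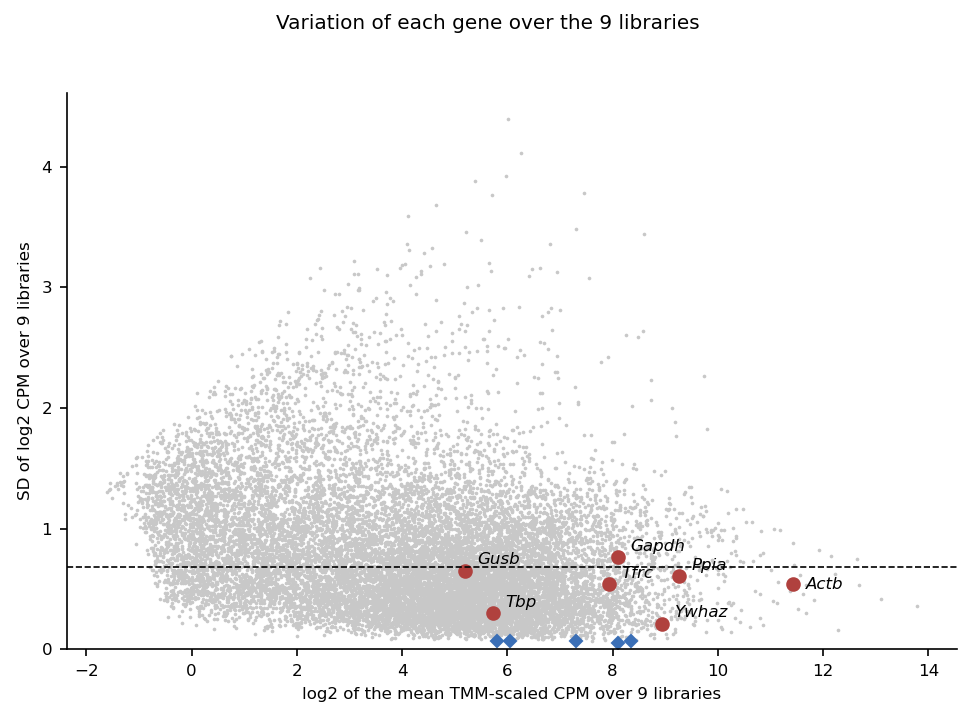
SD of log2 CPM over 9 libraries against the log2 of the mean TMM-scaled CPM, with 1 grey point per tested gene, the 7 ranked reference genes in red, the 5 least variable genes named in the text as blue diamonds, and the median of all genes (0.682) as a dashed line. Ywhaz (0.211) and Tbp (0.301) sit low among genes of their level, and Gapdh (0.761) lies above the dashed line.

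The genes that varied least were none of the usual ones. Among named genes with at least 10 CPM in each group, the 5 lowest SDs were those of Tars, a threonyl-tRNA synthetase (0.048, 255 to 288 CPM), Capns1, the small subunit of the calpain proteases (0.065, 303 to 347 CPM), Clptm1l (0.066, 52.6 to 60.3 CPM), Gpat4, an enzyme of glycerolipid synthesis (0.066, 61.8 to 70.0 CPM), and Elp2, a subunit of Elongator (0.066, 147 to 170 CPM). They were picked as the lowest of many values in these libraries, so their SDs are a description.

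A ratio of 2 genes within a library does not depend on how libraries are scaled. The mean SD of a member's log2 count ratio to the other 6, known as the M value, was lowest for Ywhaz (0.503), then Ppia (0.559), Actb (0.591), Tbp (0.657), Gapdh (0.662), Gusb (0.703) and Tfrc (0.944). Tbp was the fourth here and the second by SD. The steadiest ratio was that of Gapdh to Ppia (SD 0.245), which both rose in EpiLC, and the least steady was Gapdh to Tfrc (SD 1.286), whose mean log2 count ratio went from -0.41 in mESC-2i and -1.10 in mESC-ser to 1.70 in EpiLC. The geometric mean of the 7 genes, the usual normaliser of a panel, had an SD of 0.275 and ranged from 214 to 331 CPM, which was more than Ywhaz alone.

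Levels of different genes can be compared only per length, here as RPKM (the CPM divided by the length in kilobases of the transcript with the longest coding sequence). Counted on the gene alone, Actb was highest in every state, with means of 872 ± 102 RPKM for mESC-2i, 1421 ± 77.0 for mESC-ser and 2013 ± 76.4 for EpiLC (SD, n = 3). Ppia came second with 383 ± 38.2, 358 ± 47.9 and 833 ± 19.3 RPKM. Ywhaz stood above Gapdh in both mESC groups (206 ± 11.0 against 145 ± 7.47 RPKM in mESC-2i, 212 ± 8.80 against 123 ± 8.76 in mESC-ser) and below it in EpiLC (276 ± 16.0 against 379 ± 33.3). Tfrc stood at 50.2 ± 3.92, 69.3 ± 11.1 and 30.2 ± 3.07 RPKM. Tbp (23.0 ± 2.63, 35.0 ± 2.71 and 25.8 ± 2.89) and Gusb (from 7.12 ± 0.699 with serum to 19.5 ± 0.392 in EpiLC) were the lowest ranked members, and in EpiLC Tbp and Tfrc lay within 2 SDs of each other. These levels count only reads given to the gene itself, and the order changed when the counts of pseudogene copies, described next, were added. Ppia then stood at 1084 ± 155, 954 ± 134 and 2483 ± 21.6 RPKM, above the Actb gene alone in mESC-2i and EpiLC. No copies were added to Actb, for the reason given below, so these 2 genes were not measured alike. Gapdh with copies stood at 969 ± 68.2, 819 ± 45.3 and 1713 ± 126 RPKM, above Ywhaz with copies in every state (237 ± 11.9, 254 ± 10.5 and 277 ± 16.5). A read counted at more than 1 placement would enter such a sum more than once, here and in the shares and sums below. Whether this occurred is not known, so levels with copies may be too high.

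Much of what was counted in the Gapdh and Ppia families stood on pseudogenes. Of the sum of Gapdh and its 96 pseudogene copies in the table, 84.0% to 85.7% of counts were on copies in mESC-2i, 84.7% to 85.4% in mESC-ser and 77.5% to 78.5% in EpiLC. For Ppia with 18 copies the share was 62.6% to 65.9%, 62.1% to 62.6% and 65.6% to 67.1%. For Ywhaz with 3 copies it was 12.3% to 13.8%, 16.4% to 16.9% and 0.351% to 0.601%. The EpiLC libraries stood apart from all mESC libraries for Gapdh and Ywhaz, with a lower share on copies in each case. All processed pseudogenes together took 6.20% to 8.19% of counts in mESC-2i, 4.74% to 5.52% in mESC-ser and 11.0% to 11.4% in EpiLC, the opposite order.

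Single copies did not move alike. Gm13394, the Gapdh pseudogene with the most counts, had 80.5% to 89.3% as many counts as Gapdh in mESC-2i, 81.2% to 82.5% in mESC-ser and 93.7% to 100% in EpiLC. Gm12070, another Gapdh copy, had 31.5% to 39.6%, 36.9% to 39.5% and 8.11% to 8.45%, and thus fell behind in EpiLC. Gm10123, the leading Ppia copy, had 60.1% to 67.9%, 56.3% to 58.4% and 78.4% to 84.7% as many counts as Ppia. Gm4202, the leading Ywhaz copy, had 444, 765 and 683 counts for mESC-2i, 1180, 963 and 1317 for mESC-ser and only 14, 10 and 23 for EpiLC. Whether these counts are transcripts of the copies or reads of the parent gene placed there was not tested.

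No such share is given for Actb, because most of the pseudogenes that share a window with it are closer to Actg1, the gene of the other cytoplasmic actin. Of the 9 in the table, 5 had more 50-base windows in common with Actg1 than with Actb, and they held 94.6% of the counts of the 9. Gm12715, which had the most counts, shared 973 of its 1079 windows with Actg1 and 30 with Actb.

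**Figure D3:**
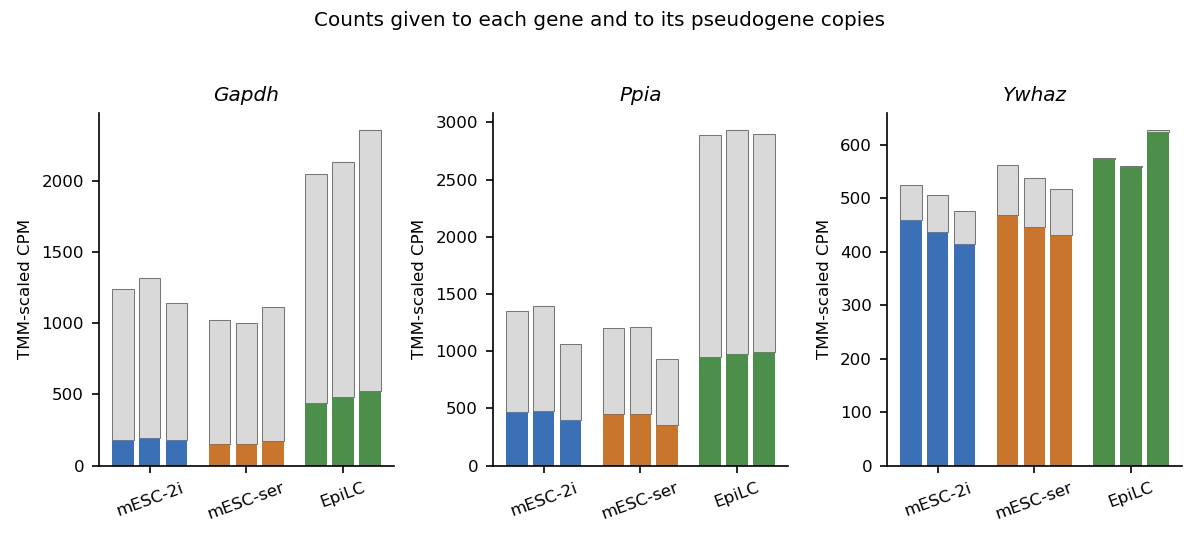
TMM-scaled CPM of 3 reference genes (coloured) with the CPM given to their pseudogene copies stacked on top (grey), with 1 bar per library in 3 groups. For Gapdh and Ppia the grey part is the larger in every library, and for Ywhaz it nearly vanishes in EpiLC (0.351% to 0.601% of the sum).

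Adding the counts of pseudogene copies to Gapdh, Ppia and Ywhaz kept the direction of each of their calls and changed sizes. Gapdh then rose in EpiLC by 0.82 on the log2 scale against mESC-2i (SE 0.11, edgeR adjusted p = 4.40e-05) and by 1.13 against mESC-ser (SE 0.08, edgeR adjusted p = 1.16e-09). Its SD over the 9 libraries was 0.489 in place of 0.761, so that it was no longer the last, and Ppia ranked last at 0.671. Ywhaz stayed first with an SD of 0.117, and its log2 differences in EpiLC were 0.23 against mESC-2i and 0.20 against mESC-ser.

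Gene length was a further measure that moved with the groups. Across 12919 protein-coding genes, which are not independent replicates, the log2 difference of EpiLC against mESC-ser had a Spearman correlation of -0.498 with exonic length. It was -0.300 for EpiLC against mESC-2i and 0.280 for mESC-ser against mESC-2i. The transcript of Tfrc, at 4890 bases, is the longest of the 8. With offsets for length and GC content from 1 transcript per gene, an alternative chosen after seeing the data, the log2 difference of Tfrc in EpiLC against mESC-ser was 0.01 (95% interval -0.21 to 0.23, edgeR adjusted p = 0.908) in place of -1.13, and against mESC-2i it was -0.31 in place of -0.73. Under offsets from all annotated exons it was -0.34 and -0.50, so neither kept the call of Tfrc in EpiLC. Tfrc then had the lowest SD of the 7, at 0.187 with 1 transcript per gene and 0.253 with all exons. With 1 transcript per gene the largest log2 difference among the states was 0.98 for Gapdh and 0.69 for Ppia, in place of 1.62 and 1.22. Their SDs were then 0.483 and 0.325, and Gusb ranked last at 0.627. With all exons the largest differences were 1.57 and 1.20, and Gapdh stayed last (SD 0.770). The part of length in these differences cannot be told apart from that of the culture state.

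Tbp shows how far such a correction depends on the annotation. Its transcript with the longest coding sequence has 1891 bases, but its annotated exons span 13576 bases in all. With the first length, the log2 difference of EpiLC against mESC-ser was -0.24 (edgeR adjusted p = 0.00783), close to the -0.38 without offsets. With the second it was 1.02 (edgeR adjusted p = 3.64e-08), the opposite direction and past the threshold. The called rise of Tbp in mESC-ser against mESC-2i also changed sign with the second length, and was then not called. Gusb and Actb kept their direction under both kinds of offset in the 3 comparisons, and Gusb was called in all 3.

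**Figure D4:**
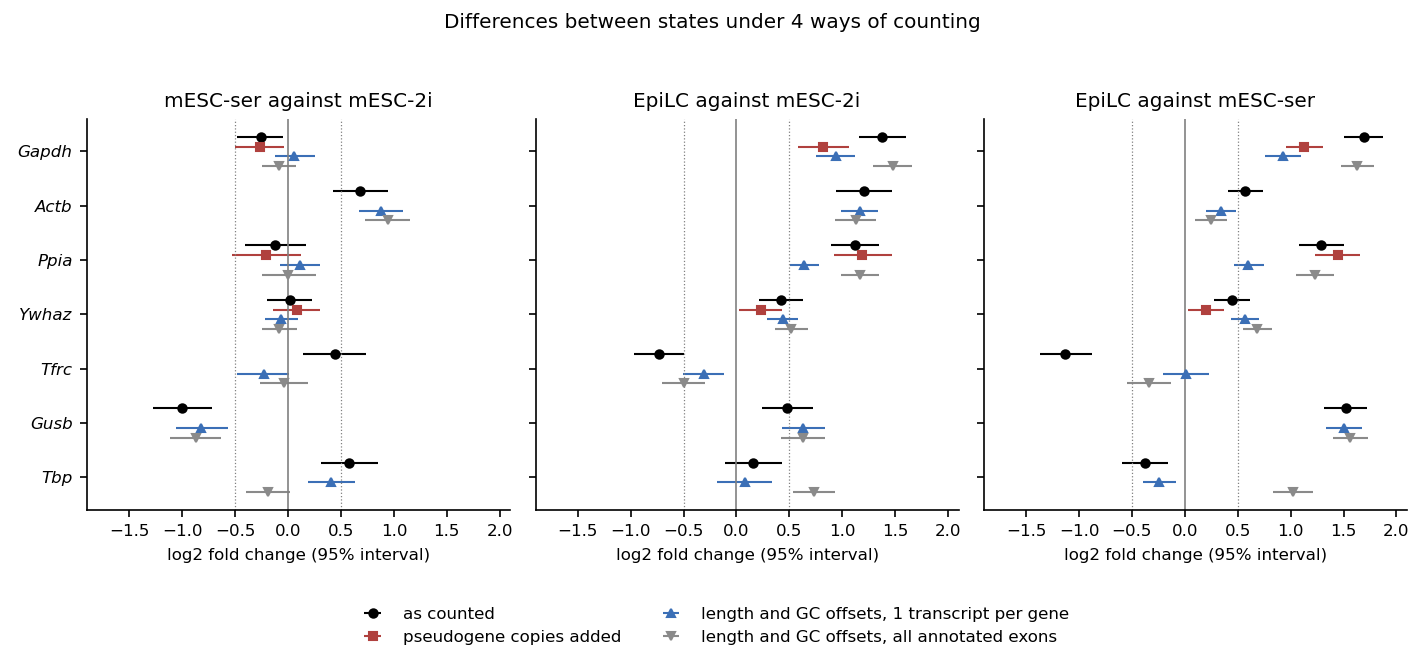
Log2 fold change of the 7 tested reference genes in the 3 comparisons, with 95% intervals, as counted (black), with pseudogene counts added to Gapdh, Ppia and Ywhaz (red) and with length and GC offsets from 1 transcript per gene (blue) or all annotated exons (grey). Dotted lines mark 0.5 in either direction, and Tfrc and Tbp in EpiLC against mESC-ser show the widest spread between settings (from -1.13 to 0.01 and from -0.38 to 1.02).

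Each member was set beside genes of its own family or pathway, members left out, with the share of all genes called given above for each comparison. The differences of these lists are as counted, with no offset for length and no counts of copies added. Both of these changed the size of some member differences above. Of the 8 tested genes of lower glycolysis, 5 rose and none fell in EpiLC against mESC-2i (median log2 difference 1.25, beside -0.11 for all genes), and 6 rose and none fell against mESC-ser (1.21, beside -0.07). Gapdh thus moved with Aldoa (1.22 and 1.85) and Eno1 (1.61 and 1.23), the enzymes of the aldolase and enolase steps. Pkm, pyruvate kinase, was not called in any comparison, with log2 differences between -0.17 and 0.39 and an SD of 0.200. In mESC-ser against mESC-2i only Aldoa passed, with a fall of 0.58 on the log2 scale.

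The actin list rose in mESC-ser, where 13 of 16 tested genes were higher and 1, Tagln2, was lower (median 1.40, beside -0.04 for all genes). In EpiLC against mESC-2i 9 of 16 were higher and 1, the myosin Myh9, was lower (median 0.98). In EpiLC against mESC-ser the list split, with 7 of 17 higher and 8 lower. Actg1, which encodes the other cytoplasmic actin, fell by 0.62 on the log2 scale there (edgeR adjusted p = 6.59e-07) while Actb rose by 0.57. Pfn1 and Cfl1, which encode the actin-binding proteins profilin and cofilin, rose by 1.75 and 1.41.

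Most lysosomal hydrolases did not share the direction of Gusb in EpiLC. In mESC-ser against mESC-2i 19 of 22 fell, as Gusb did, and 2 rose, Manba and Ids (median -1.23). In EpiLC against mESC-2i 21 of 22 fell and none rose (median -1.68), whereas Gusb was higher by 0.48. The cathepsins Ctsd and Ctsl fell there by 1.02 and 1.41 on the log2 scale. In EpiLC against mESC-ser 10 of 22 fell and 2 rose, Hexa and Ctsb (0.95 and 1.17), while Gusb rose by 1.52.

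Among the 14 tested cyclophilins, 5 rose and 2 fell in mESC-ser against mESC-2i, where the falls were of Ppib and Ppic (log2 differences of -1.23 and -2.93). In EpiLC 7 rose and 3 fell against mESC-2i, and 7 rose and 5 fell against mESC-ser. Ppib, Ppid and Ppih rose in both EpiLC comparisons, as Ppia did, with log2 differences between 0.88 and 2.64. The 6 other 14-3-3 genes had a median SD of 0.270, beside 0.211 for Ywhaz. In mESC-ser Ywhaq and Sfn rose against mESC-2i (0.60 and 1.69), in EpiLC Ywhaq rose against mESC-2i (0.71), and Ywhag and Sfn fell in EpiLC against mESC-ser (-0.64 and -1.64). Ywhae, the most abundant of them per length, was not called in any comparison and had an SD of 0.167.

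Of the genes of iron uptake and storage, 7 of 12 rose and 1, Ftl1, fell with serum against 2i. In EpiLC 6 of 11 rose and 4 fell against mESC-2i, and 2 of 12 rose and 7 fell against mESC-ser. The 2 that rose were the ferritin chains Fth1 (1.96) and Ftl1 (1.57), which store iron, where Tfrc fell by 1.13 before any offset for length. Of the 15 tested TFIID genes 5 rose and none fell with serum against 2i, while EpiLC had 6 rises and 4 falls against mESC-2i and 6 rises and 5 falls against mESC-ser. Taf9 and Taf12 rose in both EpiLC comparisons (0.97 and 0.77, 0.92 and 0.92), and Taf7 fell by 0.73 against mESC-2i. The median SD of this list was 0.392.

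Purine salvage, the pathway of Hprt, had other enzymes well above its level. Of 8 tested genes 3 rose and 2, Dguok and Ada, fell with serum against 2i. In EpiLC 4 rose and 2, Ada and Gmpr, fell against mESC-2i, and 4 rose and 1, Pnp2, fell against mESC-ser. Aprt, which salvages adenine, had group means of 133 CPM with 2i, 113 CPM with serum and 306 CPM in EpiLC, and Adk, adenosine kinase, had means of 11.4, 56.2 and 82.2 CPM in the same order. A list of 20 other common reference genes had a median SD of 0.533, with 3 rises and 6 falls with serum against 2i. The list gave 8 rises and 7 falls when EpiLC were set against mESC-2i, and 10 and 5 when set against mESC-ser. Rps18 and Rpl13a, which encode ribosomal proteins, had SDs of 1.102 and 0.987, above that of Gapdh, and Eef1a1, a translation elongation factor, had 0.411.

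The genes whose log2 CPM followed each ranked member most closely over the 9 libraries were Castor1, Bin1 and U2af1l4 for Gapdh (Pearson r = 0.997 each), Hdgf, Fam32a and Dnajc2 for Actb (0.997, 0.994 and 0.993) and Mrpl22, Pomp and Psmb2 for Ppia (0.999 each). For Ywhaz they were Hspe1-ps2, Dlst and Suv39h2 (0.991, 0.986 and 0.986), for Tfrc Mlh3, Cep57l1 and Fignl1 (0.986, 0.985 and 0.984), for Gusb Ift43, Eva1b and Dhcr7 (0.995, 0.994 and 0.992) and for Tbp Mat2a, Nepro and Slx4ip (0.979, 0.958 and 0.953). They are the highest of 9131 values each, over libraries that form 3 groups, and all genes of a library share its depth, so they are given as a description.

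What the choice of reference gene does to a measurement was read from 4 target genes. Each was divided by 1 member at a time within a library, as a PCR measurement would be, and the mean log2 ratios of the groups were compared. Dividing by a member subtracts its own log2 difference, so within a comparison the order of the divisors is the same for every target. Pou5f1, which encodes the pluripotency factor OCT4, differed between EpiLC and mESC-ser by 0.44 on the log2 scale under TMM scaling. Divided by Gapdh it differed by -1.25 (SDs of the log2 ratio 0.09 in EpiLC and 0.21 in mESC-ser), and divided by Tfrc by 1.56 (SDs 0.18 and 0.13). Ywhaz as divisor gave -0.01 (SDs 0.07 and 0.08), Actb -0.13, Ppia -0.86, Gusb -1.09, Tbp 0.81 and the geometric mean of the 7 genes -0.14. The sign of the Pou5f1 difference was thus set by the divisor.

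Dnmt3b, the de novo DNA methyltransferase that marks EpiLC, was higher by 4.18 on the log2 scale in EpiLC against mESC-2i under TMM scaling, and by between 2.81 (divided by Gapdh) and 4.92 (divided by Tfrc). Against mESC-ser its log2 difference was 1.15 under TMM scaling but -0.53 divided by Gapdh (SDs 0.14 and 0.06), -0.38 divided by Gusb (SDs 0.01 and 0.05), -0.15 divided by Ppia (SDs 0.06 and 0.35) and 0.70 divided by Ywhaz (SDs 0.09 and 0.19). For Dnmt3b the direction thus held under every divisor against mESC-2i and not against mESC-ser. Nanog in EpiLC stayed lower under each, from -2.69 (Tfrc) to -4.80 (Gapdh) against mESC-2i and from -1.02 (Tfrc) to -3.82 (Gapdh) against mESC-ser. Sox2 likewise ranged from -2.21 (Tfrc) to -4.32 (Gapdh) against mESC-2i and from -1.84 (Tfrc) to -4.64 (Gapdh) against mESC-ser.

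Between the mESC groups Actb and Gusb, the members with the highest and the lowest difference there, gave the ends of the range for all 4 targets. Pou5f1 in mESC-ser against mESC-2i ranged from -0.86 on the log2 scale divided by Actb (SDs 0.19 and 0.17) to 0.82 divided by Gusb (SDs 0.25 and 0.24), and Sox2 from -0.63 to 1.06 with the same divisors. Tbp came close to Actb, with -0.76 for Pou5f1 and -0.53 for Sox2, and Tfrc gave -0.61 and -0.37. Nanog was lower under all 7, from -1.92 (Actb) to -0.24 (Gusb, SDs 0.26 and 0.16), and Dnmt3b was higher under all 7, from 2.39 (Actb) to 4.07 (Gusb). Ywhaz gave values within 0.02 of TMM scaling for each of these 4 targets in mESC-ser against mESC-2i (-0.19, 0.04, -1.25 and 3.06 for Pou5f1, Sox2, Nanog and Dnmt3b). This follows from its own log2 difference of 0.02 in that comparison, and the 4 targets add no separate evidence on Ywhaz.

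**Figure D5:**
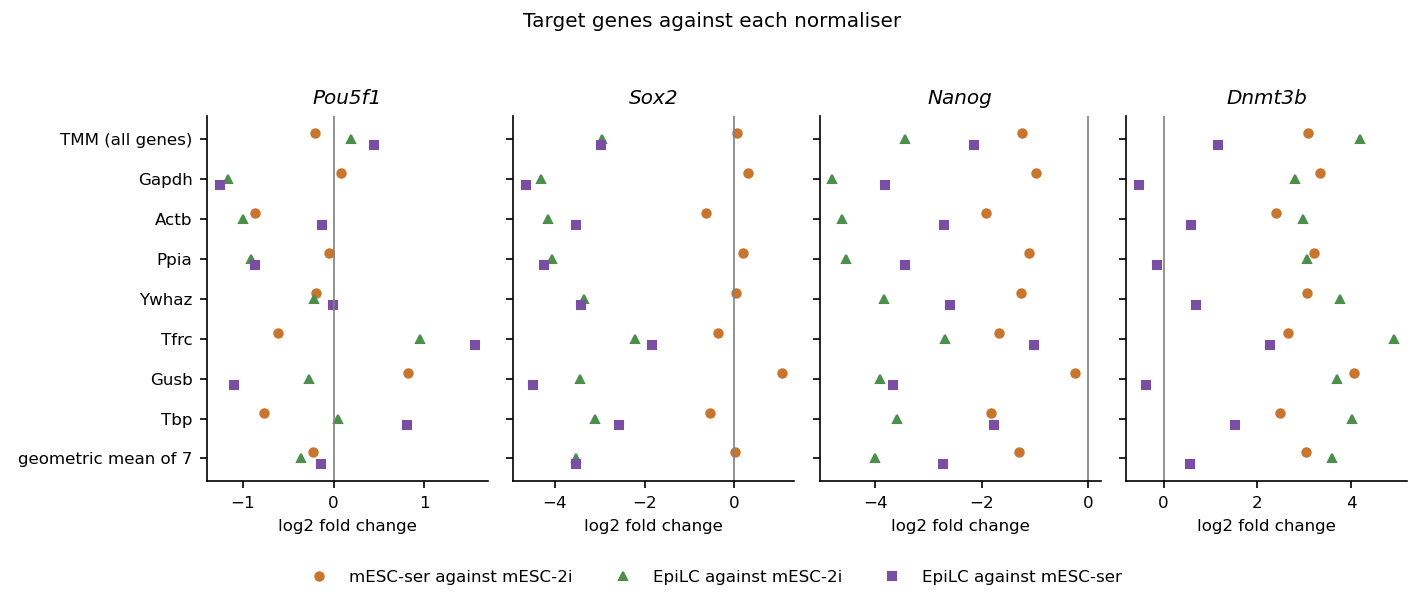
Log2 fold change of Pou5f1, Sox2, Nanog and Dnmt3b in the 3 comparisons (marker shape) with TMM scaling, each of the 7 reference genes or their geometric mean as the normaliser (rows). In EpiLC against mESC-ser, Pou5f1 runs from -1.25 with Gapdh to 1.56 with Tfrc, and Dnmt3b from -0.53 to 2.27.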

How the data were processed

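RNA was poly(A)-selected, prepared with the TruSeq RNA v2 kit and sequenced as 50-base single reads. Per the labels, the submitters' processing notes name FastQC 0.11.0, Trim Galore 0.6.6, HISAT2 2.2.1, Subread 2.0.1 and the build mm10. The deposited table holds raw counts per gene, made by the authors, for 38293 Ensembl genes, of which 36429 (95.1%) matched GENCODE M21 (GRCm38). How reads with several placements were counted is not given in the sources used here. Each library is labelled as a biological replicate (3 per state).

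Genes were filtered with filterByExpr and scaled by TMM, and each pair of states was tested with edgeR 4.0.16 (quasi-likelihood F-test, Benjamini-Hochberg adjustment over all tested genes, R 4.3.3). The tests were checked on simulated counts in which few genes changed, far fewer than were called here. Scaling under such wide change was therefore not checked. DESeq2 1.42.0 was an alternative. log2 CPM used a prior count of 2, and count ratios an added 0.5. Offsets for length and GC content were natural splines with 5 degrees of freedom per library. Copies were searched among annotated transcripts, not in the whole genome as planned. For each member, the counts of pseudogenes sharing a 50-base window were summed, and for Actb, whose sum was mostly of Actg1 copies, the result is not used. The genes named are the members, the 3 most abundant per length of each related list, the 5 least variable genes, the 3 most alike per ranked member, 4 targets and the leading copies of members, plus genes that account for small counts. Some items that these rules name are not reported here. The members and lists were chosen with earlier results of these data known. Across genes, deviations of same-numbered mESC-ser and mESC-2i libraries had correlations of 0.129 to 0.345, beside -0.278 to 0.146 for other numbers. For EpiLC they were 0.0195 to 0.112 against mESC-2i (other numbers -0.114 to 0.0105) and 0.0165 to 0.0335 against mESC-ser (-0.0308 to 0.0159). The tests above did not pair libraries in any comparison. The replicate number entered only as a block in an alternative fit.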

Additional observations from a re-analysis of the deposited data

How the results depend on the processing

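The counts of called members (3, 4 and 5 of 7 in mESC-ser against mESC-2i, EpiLC against mESC-2i and EpiLC against mESC-ser) stayed within 1.5 times under every alternative run, except in mESC-ser against mESC-2i, where 1 passed a log2 fold threshold of 1 and 5 passed by adjusted p alone. Leaving out 1 library gave 3 to 4, 4 to 5 and 5. The fit with the replicate number as a block gave 3, 4 and 5, and changed no call of a member. The median SD of 0.540 was 0.325 with length and GC offsets from 1 transcript per gene, and as a coefficient of variation, another scale, it was 0.360. The median M value of 0.657 was 0.521 and 0.492 with offsets from all exons and from 1 transcript. Ywhaz ranked first in 17 of 19 alternatives and Tfrc in the other 2, both with offsets. There Ywhaz had rank 2 with all exons (SD 0.297) and rank 3 with 1 transcript per gene (0.248, behind Tbp at 0.235). The alternatives reuse the same libraries and are not independent of each other. Total-count scaling lowered the median of all genes to -0.45 and -0.41 in EpiLC against mESC-2i and mESC-ser, with 33.8% and 37.4% of calls higher in place of 45.9% and 48.4%. Tbp was then at -0.18 against mESC-2i, which was 0.27 above that median. In mESC-ser against mESC-2i, several differences changed sign, and none was called after the change. Gapdh was 0.06 with offsets from 1 transcript, Ppia 0.00 and 0.11 with the 2 kinds of offset and 0.01 without mESC-ser replicate 3, and Ywhaz -0.02 with upper-quartile scaling, -0.03 with total counts, -0.09 and -0.07 with offsets and -0.02 without mESC-2i replicate 3. Tfrc, at 0.44 without offsets, was -0.04 and -0.23 with them. Tbp, called at 0.58 without offsets, was -0.19 with offsets from all exons and lost its call. In EpiLC against mESC-ser, Tfrc was 0.01 with offsets from 1 transcript and Tbp 1.02 with offsets from all exons. The cause of these shifts was not tested. Hprt is limited by its depth of 3 to 8 counts.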
